A study of Mus musculus with 11 samples.

Results

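Naive extra-embryonic endoderm (nEnd) cells are mouse stem cells used as a model of primitive endoderm (PrE), a lineage of the blastocyst. They were made from embryonic stem cells and kept on feeder fibroblasts in RACL, an RPMI-based medium with Activin A, CHIR99021 and LIF. The libraries described here came from nEnd cells in which OCT4 protein is reported by mCherry, left untreated, stained for the receptor PDGFRA and sorted by flow cytometry for DAPI-negative cells. DP cells carried both the reporter and PDGFRA, and Oct4+ cells carried the reporter without PDGFRA. The 2 populations therefore shared the line, the medium and the reporter and were separated by surface PDGFRA. They made up 6 of the 11 samples of the series, 3 libraries each, and were chosen by their sample labels. The 3 sorted Pdgfra+ libraries of the same line, which carry PDGFRA without the reporter, entered the fit and are quoted beside some results as a further level. The line is a single reporter line. The paper calls the 3 libraries of a group biological replicates, and the labels do not say whether they came from separate cultures. The p-values therefore measure only the spread between these libraries.

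In the blastocyst, the inner cell mass divides into epiblast, which forms the embryo proper, and PrE, which forms the yolk sac endoderm. OCT4 (gene symbol Pou5f1) and SOX2 bind DNA together with NANOG, ESRRB and KLF factors to hold the naive epiblast state. GATA6, GATA4 and SOX17 set up the endoderm programme, in which cells carry PDGFRA, secrete a basement membrane and take up proteins from their surroundings. FGF acting through ERK favours PrE over epiblast, while LIF acting through JAK and STAT3 supports both naive epiblast and PrE cultures. OCT4 protein persists in early PrE, so that it is shared by both lineages for a time.

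Levels are given as CPM (read counts divided by the TMM-scaled library size) and every fold change is DP relative to Oct4+, so that a positive log2 fold change is higher in DP. A gene passed the threshold when its edgeR quasi-likelihood test gave a Benjamini-Hochberg adjusted p under 0.05 and its log2 fold change was over 1.5 in size. Of 48952 genes in the table, 14185 had enough counts to be tested. DP and Oct4+ differed past the threshold in 3933 of them, which is 27.7% of the genes tested. The higher level was in DP for 1859 genes, or 13.1%, and in Oct4+ for 2074 genes, or 14.6%. In 62.6% of all genes tested the 3 DP and the 3 Oct4+ values did not overlap. Conversely, 4611 genes, or 32.5%, had close levels, meaning that the whole 95% confidence interval of the log2 fold change lay within 1 of 0. The median log2 fold change over all genes tested was -0.04, and under upper-quartile scaling it was -0.26.

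Library depth was alike, from 8019631 to 11642571 reads over the 6 libraries, and the TMM factors were 0.949 to 0.957 in DP and 1.11 to 1.15 in Oct4+. Between 12846 and 12868 genes reached 1 CPM in the DP libraries and between 13978 and 14034 in the Oct4+ libraries, whereas the number at 10 CPM or more was 9087 to 9317 in DP and 9184 to 9275 in Oct4+. Mitochondrial transcripts took 0.866% to 1.29% of the counts in DP and 0.877% to 1.48% in Oct4+. Genes past the threshold and higher in DP held 22.7% to 28.1% of the counts of a DP library and 4.04% to 4.51% of an Oct4+ library. The genes lower in DP held 7.73% to 8.34% of an Oct4+ library and 1.09% to 1.32% of a DP library. In bulk RNA, fewer cells of a type and less RNA per cell cannot be told apart.

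**Figure D1:**
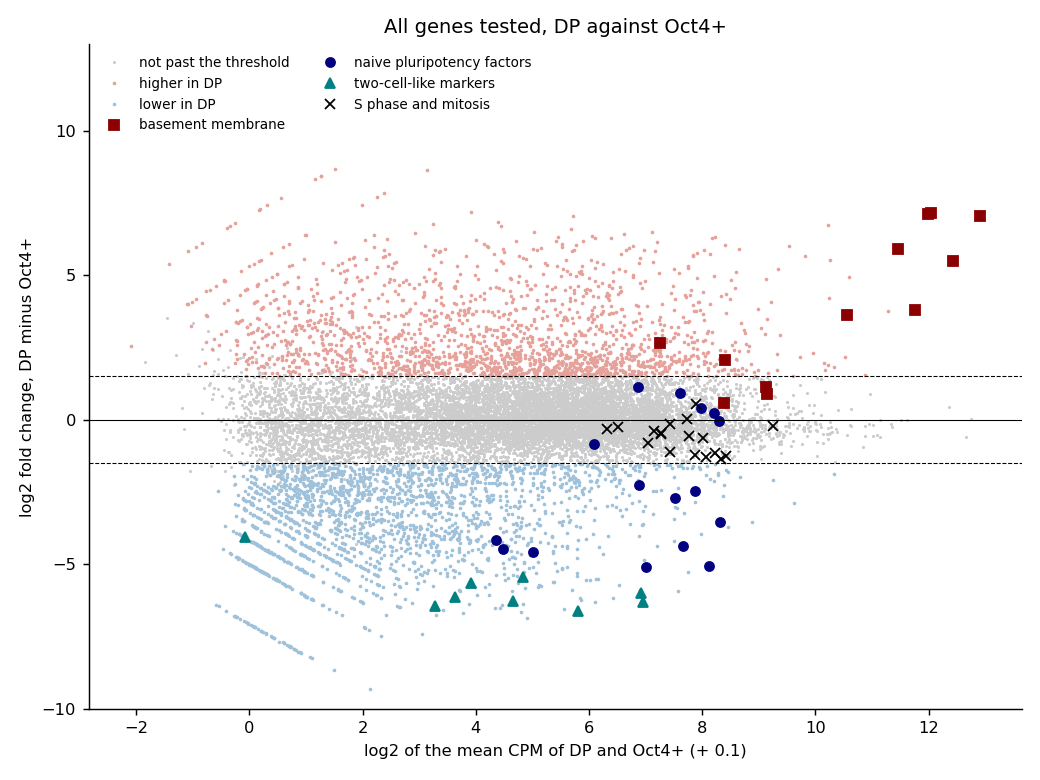
Log2 fold change of DP minus Oct4+ (y axis) against the log2 mean CPM of both groups (x axis) for the 14185 genes tested, with dashed lines at 1.5 and -1.5. Basement membrane genes (squares) range from 0.56 to 7.15, naive pluripotency factors (circles) are spread from -5.11 to 1.13, 2-cell-like markers (triangles) lie between -6.62 and -4.07, and genes of S phase and mitosis (crosses) stay within the dashed lines.

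The genes behind the sort came first. Pdgfra (ENSMUSG00000029231, chromosome 5: 75152292-75198215, GRCm38) was at 630, 420 and 718 CPM in DP replicates 1 to 3 and at 4.96, 12.1 and 5.21 CPM in Oct4+ replicates 1 to 3, a log2 fold change of 6.31 (SE 0.43). Pou5f1 (ENSMUSG00000024406, chromosome 17: 35506018-35510772) was at 132, 245 and 310 CPM in DP and at 1137, 944 and 861 CPM in Oct4+. The DP and Oct4+ values of both genes lay apart in every library. Pou5f1 was thus 4.28-fold lower in DP (log2 fold change -2.10, SE 0.39, adjusted p = 0.0012), although both populations were sorted as positive for the reporter, and its mean in Pdgfra+ was 17.5 CPM. Gata6 (chromosome 18: 11052064-11085635), the endoderm marker, was at 452, 395 and 410 CPM in DP and 10.5, 9.17 and 11.7 CPM in Oct4+. Nanog (chromosome 6: 122707489-122714633), the epiblast marker, was at 9.60, 26.6 and 12 CPM in DP and 644, 332 and 639 CPM in Oct4+. The markers of both populations therefore followed the labels in all 6 libraries.

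Naive pluripotency factors were lower in DP where they passed the threshold. Of 16 factors tested, 10 (62.5%) were past the threshold and lower in DP and none was higher. Among all genes tested, 14.6% were lower and 13.1% higher. The median log2 fold change of the factors was -2.59. Klf2, a Kruppel-like factor of ground-state embryonic stem cells, was at 7.6, 7.79 and 6.40 CPM in DP and 312, 187 and 254 CPM in Oct4+ (log2 fold change -5.11, SE 0.22). Sox2, the partner of OCT4 on DNA, was at 16.6, 24.3 and 14.4 CPM in DP and 442, 436 and 276 CPM in Oct4+ (-4.38, SE 0.39). Nanog was 33.4-fold lower in DP (-5.06, SE 0.49, adjusted p = 2.72e-05), with the highest DP value, in replicate 2, still below every Oct4+ value. Prdm14, a repressor of differentiation genes, Gbx2 and the nuclear receptor gene Nr5a2 fell by 4.58, 4.49 and 4.14 on the log2 scale.

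Other members of the low group kept a larger remainder in DP. Esrrb, an orphan nuclear receptor of the naive network, was at 30.3, 53.5 and 66.7 CPM in DP and 752, 419 and 588 CPM in Oct4+, so that the DP mean was 8.55% of the Oct4+ mean. That share was 15.4% for Zfp42 (REX1), 18.0% for Tfcp2l1, 21.2% for Zfp281 and 23.4% for Pou5f1 itself, against 2.98% for Nanog and 4.80% for Sox2. In Pdgfra+ cells Esrrb had a mean of 3.61 CPM, Sox2 of 1.68 CPM and Nanog of 1.79 CPM, all below each DP library, while Tfcp2l1, at 39.0 CPM, and Zfp281, at 43.8 CPM, had Pdgfra+ means closer to their DP values. The 10 factors kept their call when any 1 of the 9 libraries was left out.

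Sall4, Klf4, Klf5, Tbx3, Mycn and Nr0b1 did not pass the threshold, which does not show that their levels were equal. Sall4, a zinc finger factor needed in both epiblast and PrE cultures, was at 322, 307 and 295 CPM in DP and 357, 351 and 255 CPM in Oct4+, and its 95% interval, from -0.43 to 0.31, was the only one of the list within 1 of 0. Klf4, a target of LIF signalling, was at 400, 209 and 347 CPM in DP and 396, 207 and 219 CPM in Oct4+ (interval -0.57 to 1.0). The ranges of DP and Oct4+ overlapped for both genes, and their Pdgfra+ means were 272 CPM for Sall4 and 393 CPM for Klf4. Klf5 had a log2 fold change of 0.92 (interval 0.18 to 1.65), with the groups apart, and Tbx3 of 0.42 (interval -0.31 to 1.14). Mycn, at 37.5, 155 and 26.6 CPM in Oct4+, and Nr0b1, at 14.5, 105 and 27.4 CPM in DP, had adjusted p of 0.0945 and 0.285. Both passed when 1 library was left out, Mycn at 2.32 without Oct4+ replicate 2 and Nr0b1 at -2.05 without DP replicate 2, and Mycn also under limma-voom, at 1.56.

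**Figure D2:**
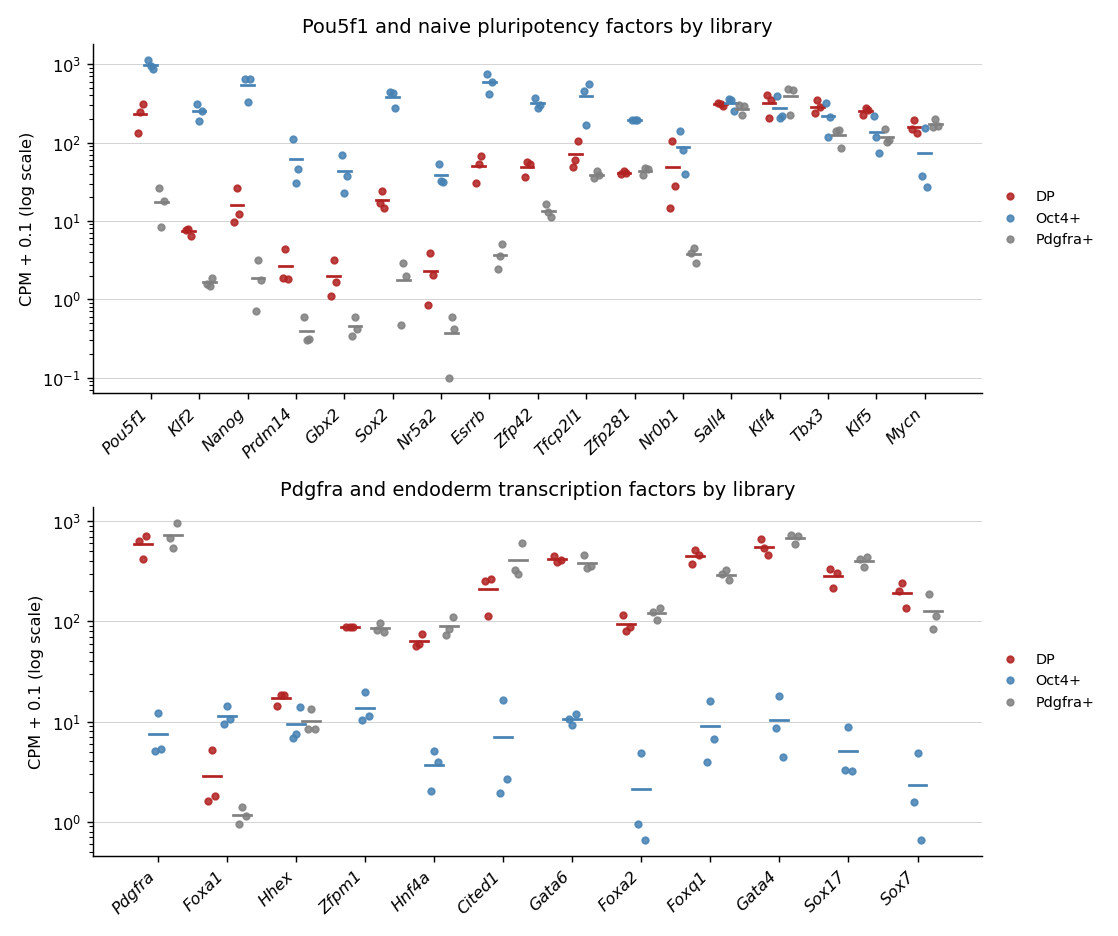
CPM + 0.1 on a log axis for Pou5f1 and the naive factors (top) and for Pdgfra and the endoderm factors named in the text (bottom), with 1 point per library and a line at the mean of 3. DP (red) lies between Oct4+ (blue) and Pdgfra+ (grey) for Pou5f1, Nanog, Sox2 and Esrrb, lies with both groups for Sall4, and lies with Pdgfra+ for Gata6, Gata4 and Sox17.

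The proximal promoter of Nanog is shown because it carries letters read by OCT4 and SOX2, whose genes were both lower in DP. The 250 bases before the RefSeq start (chr6:122707239-122707488, plus strand, GRCm38.p6) hold the octamer core ATGCAAA on the reverse strand and, directly after 1 base, the SOX core ACAATG, both in capitals. These 2 cores were searched on both strands after the data were seen.
Nanog: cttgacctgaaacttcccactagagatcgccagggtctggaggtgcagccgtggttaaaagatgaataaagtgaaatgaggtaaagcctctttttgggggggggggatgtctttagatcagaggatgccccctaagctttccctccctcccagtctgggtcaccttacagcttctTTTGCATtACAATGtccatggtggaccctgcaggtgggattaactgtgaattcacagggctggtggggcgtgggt
Over the 10653 tested genes with a RefSeq promoter, 3.88% held the octamer core and 7.54% the SOX core in these 250 bases. Among genes lower in DP the shares were 5.35% and 8.53%, and among genes higher in DP 4.26% and 8.45%. Of the 12 naive factors with a promoter entry, Nanog, Sox2 and Zfp42 held the octamer core, and Nanog alone held the SOX core. A match of letters is a description and not a bound site.

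Genes of the later, formative and primed epiblast were also lower in DP, with more spread between the Oct4+ libraries. Of 16 tested, 9 (56.25%) were lower and none was higher, beside 14.6% and 13.1% of all genes tested. The median log2 fold change of the list was -1.52. Sox3 and Foxd3, transcription factors of the epiblast leaving the naive state, fell by 5.34 and 4.81 on the log2 scale, and Lin28b, which blocks let-7 maturation, by 4.34. Otx2, which opens formative enhancers, was at 6.36, 6.84 and 3.92 CPM in DP and 19.2, 113 and 5.32 CPM in Oct4+, so that the groups overlapped and 1 Oct4+ library held most of the level. Pou3f1 was at 6.82, 55.0 and 6.76 CPM and Fgf5, the primed marker, at 2.56, 21.7 and 1.22 CPM in Oct4+, again with replicate 2 alone high. Without that library Otx2 had a log2 fold change of -1.11 and an adjusted p of 0.228. The calls of Otx2, Utf1, Grhl2 and Dnmt3a were lost when single DP or Oct4+ libraries were left out, which left 5 of the 9. Dnmt3b, a de novo DNA methyltransferase, went the other way without passing the threshold, at 315, 789 and 531 CPM in DP and 178, 375 and 147 CPM in Oct4+ (log2 fold change 1.22, interval 0.11 to 2.34).

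The endoderm factors were higher in DP. Of 12 tested, 10 (83.3%) were higher in DP and 1 (8.33%) was lower, beside 13.1% and 14.6% of all genes tested. The median log2 fold change of the list was 5.36. Gata4 was at 662, 536 and 462 CPM in DP and 8.53, 17.9 and 4.32 CPM in Oct4+ (5.75, SE 0.44). Sox17 was at 330, 216 and 302 CPM in DP and 3.18, 8.68 and 3.10 CPM in Oct4+ (5.83, SE 0.39), and Sox7, a related factor of endoderm, rose by 6.42 (SE 0.60). Gata6 was 39.9-fold higher in DP, with a Pdgfra+ mean of 385 CPM beside the DP values of 395 to 452 CPM. The forkhead genes Foxq1 and Foxa2 and the nuclear receptor gene Hnf4a rose by 5.67, 5.53 and 4.16 on the log2 scale, and Cited1 and Zfpm1, cofactors of transcription, by 4.93 and 2.67. No DP value of these 10 genes reached down to an Oct4+ value, and the groups lay apart in 62.6% of all genes tested.

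Among the Oct4+ libraries, replicate 2 stood above the other 2 for 9 of these 10 genes, with Foxa2 at 4.73 CPM against 0.853 and 0.554 CPM, and Gata6 alone was not highest there. The median of the 12 factors in that library lay 0.98 above the Oct4+ mean on the log2 scale, against -0.39 and -0.36 in replicates 1 and 3. All 10 calls remained when that library, or any other single one, was left out. Foxa1, a paralogue of Foxa2, was the exception in direction: it was at 1.5, 5.07 and 1.70 CPM in DP and 9.46, 14.1 and 10.4 CPM in Oct4+ (-2.03, SE 0.46, adjusted p = 0.00404). Hhex, an early PrE gene, was at 14.3, 18.4 and 18.2 CPM in DP and 6.82, 7.39 and 14.0 CPM in Oct4+, a log2 fold change of 0.86 that did not reach the threshold.

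A RefSeq promoter of Foxa2 is shown as that of an endoderm factor with a GATA motif, since Gata6 and Gata4 were both higher in DP. The 250 bases before this RefSeq start (chr2:148045465-148045714, minus strand, GRCm38.p6) hold AGATAA, in capitals. The gene is annotated over 148042877-148046969, so this stretch lies inside the annotated gene and not before its outermost start.
Foxa2: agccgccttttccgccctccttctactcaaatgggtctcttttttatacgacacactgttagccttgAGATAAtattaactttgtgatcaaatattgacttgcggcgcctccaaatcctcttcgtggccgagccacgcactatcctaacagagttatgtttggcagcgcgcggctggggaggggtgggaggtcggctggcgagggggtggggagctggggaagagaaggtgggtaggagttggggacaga
AGATAA, on either strand, was present in these 250 bases in 7.11% of all tested genes with a promoter, in 8.66% of those higher in DP and in 7.88% of those lower in DP. Of the 6 endoderm factors with a promoter entry, Foxa2 and Hnf4a held it. Over the 300 bases from 250 before to 50 after the start, the 5 other motifs searched were in 1.85% of higher, 2.53% of lower and 1.67% of all genes for the octamer ATGCAAAT, in 3.48%, 2.75% and 2.58% for ACAATGG, in 0.284%, 0.361% and 0.310% for TCAAGGTCA, in 5.61%, 4.70% and 4.55% for GGGTGTGG and in 6.68%, 5.35% and 4.28% for the AP-1 motif TGACTCA.

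Basement membrane genes were higher in DP, among them the chains of type IV collagen. Of 12 tested, 9 (75.0%) were higher in DP and none was lower, beside 13.1% and 14.6% of all genes tested. The median log2 fold change of the list was 3.73. The DP and Oct4+ values of all 12 lay apart, beside 62.6% of all genes tested. Col4a1 and Col4a2, the chains of type IV collagen, start 21 bases apart on opposite strands of chromosome 8, so that their first bases overlap. Col4a1 was at 20720, 10807 and 14186 CPM in DP and 84.9, 192 and 67.7 CPM in Oct4+ (7.05, SE 0.49). It was the most abundant gene of every DP library and of every Pdgfra+ library, with a Pdgfra+ mean of 24426 CPM. The summed level of the 12 genes was 48272 to 72769 CPM in DP and 71986 to 92591 CPM in Pdgfra+. Col4a2 was at 10701, 5965 and 7533 CPM in DP and 44.4, 100 and 30.6 CPM in Oct4+ (7.11, SE 0.51). The first chain was 133-fold and the second 138-fold higher in DP.

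The laminins differed by chain. Lama1 was 142-fold and Lamb1 60.3-fold higher in DP, while Lamc1, their partner in laminin-111, already had 462, 346 and 570 CPM in Oct4+ and rose by 3.81 (SE 0.22). Lama5, the alpha chain of laminin-511 that stem cells themselves produce, was at 310, 543 and 337 CPM in DP and 246, 261 and 298 CPM in Oct4+ (0.56, interval 0.07 to 1.06). Nidogen genes split likewise, Nid1 rising by 2.07 and Nid2 differing by 0.88 (interval 0.51 to 1.25). Sparc, a collagen-binding glycoprotein, and Hspg2, perlecan, rose by 5.50 and 3.64. Agrn, agrin, had a log2 fold change of 1.15 and was not past the threshold.

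The enzymes and chaperones that modify collagen moved with it. Of 15 tested, 13 (86.7%) were higher in DP and none was lower, beside 13.1% and 14.6% of all genes tested. The median log2 fold change of the list was 2.96. Its summed level was 8830 to 12152 CPM in DP and 11431 to 14546 CPM in Pdgfra+. Serpinh1, the collagen chaperone HSP47, was at 3418, 2545 and 3010 CPM in DP and 75.0, 128 and 90.2 CPM in Oct4+ (4.93, SE 0.24). P3h2, a prolyl 3-hydroxylase that acts on type IV collagen, and P4ha1, a subunit of prolyl 4-hydroxylase, rose by 5.52 and 4.16, and the lysyl hydroxylase genes Plod1, Plod2 and Plod3 by 2.37, 2.96 and 3.02. Creb3l2, a transcription factor of secretory load, was at 428, 325 and 444 CPM in DP and 21.6, 15.7 and 25.0 CPM in Oct4+. The members that did not pass were Mia3, a cargo receptor for collagen (0.96, interval 0.61 to 1.31), and P3h3 (-0.41, interval -1.25 to 0.43).

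Genes for uptake and transport of proteins and lipids followed the same direction. Of 8 endocytic receptor genes, 6 (75.0%) were higher in DP and none was lower, beside 13.1% and 14.6% of all genes tested. The median of the list was 4.87. Cubn, cubilin, was at 1450, 2770 and 2850 CPM in DP and 10.9, 43.9 and 12.4 CPM in Oct4+ (6.72, SE 0.61). Amn, amnionless, which carries cubilin to the membrane, rose by 6.04, Lrp2, megalin, by 5.53, its chaperone gene Lrpap1 by 4.21, and the clathrin adaptor gene Dab2 by 5.67. Cubn and Amn had Pdgfra+ means of 629 and 164 CPM, below each of their DP values. The Fc receptor gene Fcgrt (-1.48, interval -2.89 to -0.08) did not pass.

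Of 12 genes for secreted carriers, 9 had enough counts. Of these, 6 (66.7%) were higher in DP and none was lower, beside 13.1% and 14.6% of all genes tested. Apoe was at 1406, 1952 and 1623 CPM in DP and 331, 337 and 329 CPM in Oct4+, and Mttp, which loads lipid onto apolipoprotein B, at 88.1, 78.2 and 179 CPM and 14.5, 20.9 and 20.4 CPM. The visceral endoderm product Ttr was at 34.3, 10.6 and 39.5 CPM in DP and 0.233, 4.53 and 0.111 CPM in Oct4+ (4.12, SE 0.92). Afp was at 6.86, 0.826 and 2.22 CPM in DP and 0.0775, 0.197 and 0.111 CPM in Oct4+ (4.57, SE 0.85). Both were called higher in DP at low levels, and Apoa1, at 3.99, 1.53 and 5.49 CPM in DP, was not called. Apoc2 had no read in any library, which allows up to 3 reads per library, and Apoa2 and Trf were at or below 2.11 CPM.

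**Figure D3:**
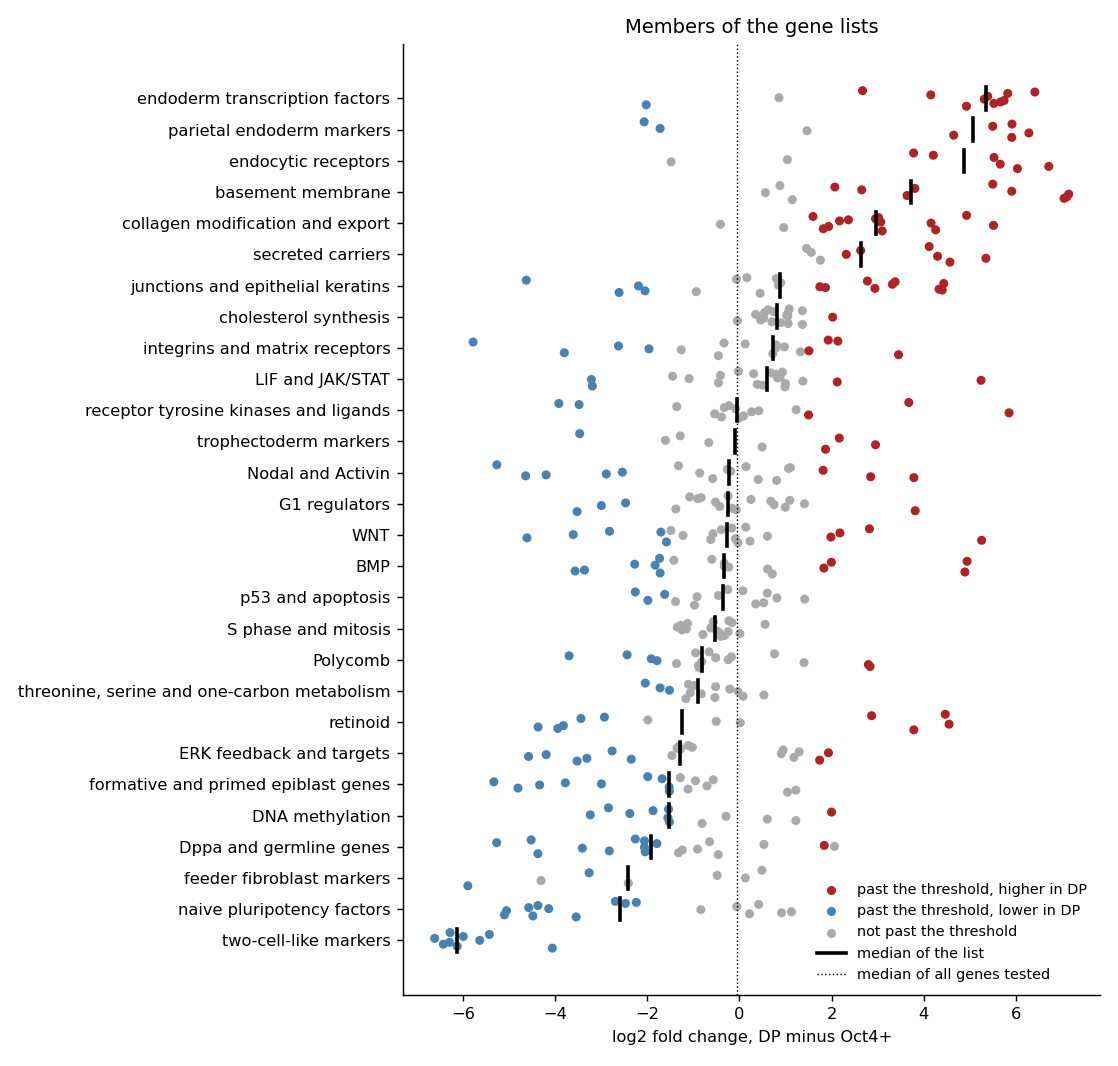
Log2 fold change of DP minus Oct4+ (x axis) for every tested member of 28 gene lists (rows), with red and blue points for members past the threshold, a black bar at each list's median and a dotted line at the median of all genes tested, -0.04. Endoderm factors, matrix and uptake genes lie to the right, naive factors and 2-cell-like markers to the left, and most signalling lists have members on both sides.

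Receptor tyrosine kinases and their ligands moved singly. Of 16 tested, 3 (18.8%) were higher and 2 (12.5%) were lower, beside 13.1% and 14.6% of all genes tested, and the median was -0.04. Flt1, a VEGF receptor, was at 746, 342 and 460 CPM in DP and 4.88, 19.6 and 2.22 CPM in Oct4+ (5.86, SE 0.70), and its ligand gene Vegfa at 210, 125 and 142 CPM and 17.1, 10.7 and 9.09 CPM (3.68, SE 0.27). Around Pdgfra, the second receptor gene Pdgfrb and the ligand gene Pdgfc fell by 3.92 and 3.48. Pdgfa, the ligand of PDGFRA, was at 24.4, 28.0 and 24.7 CPM in DP and 59.5, 45.3 and 93.8 CPM in Oct4+, a log2 fold change of -1.36 that did not reach the threshold. Erbb2, the third gene called higher (1.5, SE 0.19), lost its call when DP replicate 1, Oct4+ replicate 3 or Pdgfra+ replicate 1 was left out. Kit, at 418, 80.8 and 217 CPM in DP, overlapped with Oct4+.

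LIF signalling genes passed the threshold in both directions, no more often than all genes tested. Of 20 genes tested, 2 (10.0%) were higher and 2 (10.0%) were lower, beside 13.1% and 14.6% of all genes tested. The median log2 fold change was 0.59, and 5 had close levels, beside 32.5% of all genes tested. An adjusted p below 0.05 was found for 11 of the 20, beside 7968 of all 14185 genes. DP and Oct4+ did not overlap for 12 of the 20, beside 62.6% of all genes tested. Lifr, the receptor, was at 286, 213 and 221 CPM in DP and 108, 94.1 and 74.5 CPM in Oct4+ (1.38, interval 0.89 to 1.87), and Il6st, the shared subunit gp130, had an interval of 0.08 to 0.92. Stat3 (0.31, interval -0.07 to 0.68), Jak1 (0.39, interval 0.04 to 0.74) and Tyk2 (-0.02, interval -0.33 to 0.28) had close levels. The feedback gene Socs3 was at 109, 49.9 and 77.8 CPM in DP and 119, 54.8 and 141 CPM in Oct4+, so that the groups overlapped. Past the threshold were Lif itself, at 56.5, 25.3 and 37.0 CPM in DP and 5.04, 12.7 and 9.64 CPM in Oct4+, and the oncostatin M receptor gene Osmr, which rose by 5.25. In the other direction Pim1, a kinase gene downstream of STAT3, was at 5.73, 9.20 and 6.80 CPM in DP and 95.9, 47.3 and 59.2 CPM in Oct4+, and Il6ra fell by 3.20.

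The genes that report on ERK activity did not move as a block. Of 18 tested, 6 (33.3%) were lower in DP and 2 (11.1%) were higher, beside 14.6% and 13.1% of all genes tested. The median was -1.30. Etv5, an ETS factor induced by FGF, was at 16.3, 24.4 and 15.0 CPM in DP and 358, 407 and 262 CPM in Oct4+ (-4.20, SE 0.40), and Etv1 fell by 4.58. Dusp6, a phosphatase that acts on ERK, was at 11.3, 9.68 and 6.01 CPM in DP and 88.7, 95.8 and 85.1 CPM in Oct4+ (-3.31, SE 0.30), and Myc fell by 2.77. Spry2, Spred1 and Spred2, inhibitors of the pathway, had log2 fold changes of -1.31, -1.28 and -1.36 and adjusted p of 0.00385, 0.000452 and 0.000963 without reaching the fold limit. The immediate early genes Junb and Egr1 had positive values without passing the threshold. Junb was at 66.4, 69.7 and 67.3 CPM in DP and 24.3, 41.9 and 16.5 CPM in Oct4+ (1.30, interval 0.66 to 1.94). Egr1 had a log2 fold change of 1.18 (interval -0.03 to 2.40). The 2 genes called higher, Dusp4 and Ier3, both lost the call with 1 DP library left out, at an adjusted p of 0.133 for Dusp4 without replicate 2 and 0.0578 for Ier3 without replicate 1, and Dusp4 also without Oct4+ replicate 1 or 3.

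Nodal signalling was marked by its ligands and coreceptor. Of 18 genes tested, 5 (27.8%) were lower and 3 (16.7%) higher, beside 14.6% and 13.1% of all genes tested. Tdgf1, the coreceptor Cripto, was at 9.23, 17.6 and 5.62 CPM in DP and 548, 356 and 356 CPM in Oct4+ (-5.27, SE 0.54), and Gdf3, a related ligand, fell by 4.65. Nodal itself was at 12.6, 63.3 and 8.10 CPM in DP and 143, 163 and 186 CPM in Oct4+, and Lefty1, its secreted inhibitor and target, at 5.49, 66.0 and 5.62 CPM and 192, 218 and 166 CPM. In DP replicate 2 these 2 genes and Lefty2, at 241 CPM against 8.85 and 19.3 CPM, stood above the other DP libraries. The call of Lefty1 was lost without DP replicate 1 (adjusted p = 0.0553) or without DP replicate 3 (adjusted p = 0.0574). Follistatin (Fst), which binds Activin, was at 230, 29.7 and 109 CPM in DP and 2.25, 21.4 and 3.21 CPM in Oct4+, and Furin, which cleaves Nodal precursors, rose by 2.85. The transducer gene Smad4 had close levels (interval -0.14 to 0.42).

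BMP and WNT genes lay on both sides, ligands, inhibitors and targets alike. Of 17 BMP genes, 4 (23.5%) were higher and 6 (35.3%) were lower, beside 13.1% and 14.6% of all genes tested. Bmp2 was at 55.7, 27.8 and 57.5 CPM in DP and 1.09, 3.15 and 0.443 CPM in Oct4+ (4.90, SE 0.54), whereas Bmp4 was at 1.75, 1.65 and 2.35 CPM in DP and 40.9, 18.8 and 8.65 CPM in Oct4+ (-3.57, SE 0.67). The inhibitor gene Nog and the receptor gene Bmpr2 rose by 4.94 and 1.83, while Bmp7 and the pseudoreceptor gene Bambi fell by 3.37 and 1.72. The target Id1 overlapped between groups (interval -1.33 to 0.86), and the calls of Id3, Id4 and Smad6 were lost with 1 library left out.

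Of 20 WNT genes, 4 were higher and 5 were lower, beside 13.1% and 14.6% of all genes tested. Dkk1, a secreted WNT inhibitor, was at 77.0, 207 and 119 CPM in DP and 1.55, 6.41 and 2.66 CPM in Oct4+ (5.26, SE 0.52). The nuclear effectors differed by member, Tcf7l2 rising by 2.82 and Lef1 falling by 4.62, with Tcf7l1 at close levels (interval -0.72 to -0.06). The coreceptor gene Lrp5 rose by 1.99 and Lrp6 had a log2 fold change of 0.61. Ctnnb1, beta-catenin, was at 967, 838 and 850 CPM in DP and 764, 764 and 739 CPM in Oct4+ (interval -0.02 to 0.47). Notum and Sp5, targets of the pathway, fell by 3.61 and 2.82, and the calls of Axin2 and Sfrp1 were lost without Oct4+ replicate 1 or without DP replicate 3. The medium of both populations contained CHIR99021, which stabilises beta-catenin.

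**Figure D4:**
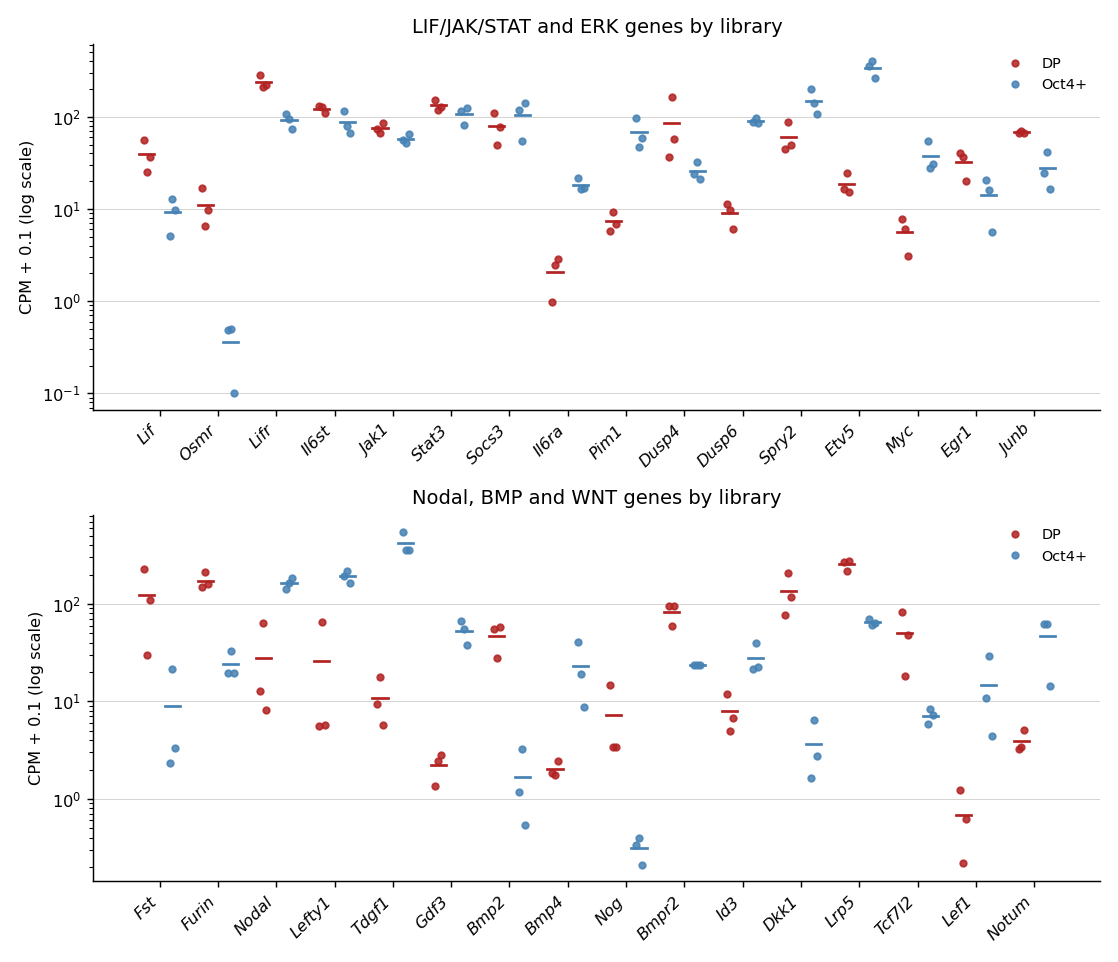
CPM + 0.1 on a log axis for selected LIF and ERK genes (top) and Nodal, BMP and WNT genes (bottom) in DP (red) and Oct4+ (blue), with 1 point per library and a line at the mean of 3. Il6st, Jak1 and Stat3 lie close together, whereas Etv5, Dusp6, Tdgf1 and Gdf3 are separated downwards in DP and Bmp2, Nog and Dkk1 upwards.

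Genes of DNA methylation and Polycomb passed the threshold in both directions. Of 12 genes of DNA methylation, 7 (58.3%) were lower and 1 (8.33%) was higher, beside 14.6% and 13.1% of all genes tested. The median of the list was -1.53. Tet1, a 5-methylcytosine oxidase, was at 35.7, 46.8 and 34.6 CPM in DP and 515, 380 and 213 CPM in Oct4+ (-3.24, SE 0.33), Tet2 fell by 2.38, and Tet3 was at 66.3, 37.9 and 54.8 CPM in DP and 14.6, 12.3 and 12.7 CPM in Oct4+ (2.00, SE 0.25). Zfp57 and Trim28, which keep methylation at imprinted loci, fell by 2.85 and 1.88, with Trim28 still at 498 to 597 CPM in DP. Dnmt1 had a log2 fold change of -0.81 (interval -1.12 to -0.51) and Dnmt3l of 0.60 (interval -0.38 to 1.58). The calls of Uhrf1, Gadd45a and Dnmt3a, at -1.54, -1.56 and -1.52, lay at the fold limit and were lost with 1 library left out.

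Of 17 Polycomb genes, 4 (23.5%) were lower and 2 (11.8%) were higher, beside 14.6% and 13.1% of all genes tested. The median was -0.82. Phc1 was at 48.5, 55.1 and 47.2 CPM in DP and 793, 770 and 399 CPM in Oct4+ (-3.70, SE 0.25), and the PRC2 accessory genes Mtf2, Jarid2 and Phf19 fell by 1.92, 1.79 and 2.44. The PRC2 core differed less, with log2 fold changes of -0.82 for the methyltransferase gene Ezh2, -1.37 for Eed and -0.66 for Suz12. Cbx8, a chromobox subunit of PRC1, rose by 2.80, and Cbx7, the chromobox gene most used in embryonic stem cells, had a log2 fold change of -0.89.

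Genes of the germline and the Dppa family were also lower. Of 18 tested, 10 (55.6%) were lower and 1 (5.56%) was higher, beside 14.6% and 13.1% of all genes tested. The median of the list was -1.92. Dazl was at 1.62, 2.12 and 2.74 CPM in DP and 44.3, 31.4 and 60.0 CPM in Oct4+ (-4.38, SE 0.46). Stra8 and Tdrd12, genes of meiosis and of small RNA defence, fell by 5.27 and 4.53, Dppa3 (STELLA) by 2.83 and Dppa2 by 2.05. Dppa5a was abundant in both, at 440, 537 and 603 CPM in DP and 1084, 718 and 1169 CPM in Oct4+ (-0.91, interval -1.47 to -0.35). Rhox5 was at 610, 618 and 673 CPM in DP and at 25.0, 38.6 and 392 CPM in Oct4+, where replicate 3 stood apart (adjusted p = 0.0531), and the calls of Mael and Slc25a31 were lost with 1 library left out.

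Junction and keratin genes passed in both directions. Of 20 junction and keratin genes, 9 were higher and 4 were lower, beside 13.1% and 14.6% of all genes tested. Cldn6 was at 676, 372 and 426 CPM in DP and 10.2, 52.1 and 7.32 CPM in Oct4+ (4.41, SE 0.66), and Cldn7, the keratins Krt8, Krt18 and Krt19, desmoplakin (Dsp) and occludin (Ocln) rose by 4.34, 3.38, 3.32, 4.44, 2.94 and 2.78. Pecam1, a surface marker of naive pluripotent cells, was at 4.24, 8.14 and 5.23 CPM in DP and 159, 86.7 and 193 CPM in Oct4+ (-4.63, SE 0.37), and Cdh3, P-cadherin, fell by 2.62. Cdh1, E-cadherin, was at 815, 783 and 933 CPM in DP and 540, 708 and 606 CPM in Oct4+, close by its interval of 0.11 to 0.79.

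Among 17 integrin and matrix receptor genes, 4 (23.5%) were higher and 4 (23.5%) were lower, beside 13.1% and 14.6% of all genes tested. Gpc3, a glypican, was at 497, 383 and 554 CPM in DP and 37.4, 47.5 and 45.8 CPM in Oct4+, and Itga1, a collagen receptor gene, fell by 3.81. Itgb1, the beta chain common to most laminin receptors, had a log2 fold change of 0.98 and Itga6, its laminin-binding partner, of -1.27, both short of the fold limit. Sdc2 had 2 reads over the 3 DP libraries and 172 over the Oct4+ libraries, a ratio of 64.8 with an exact 95% interval of 17.7 to 539 that covers counting error only. The calls of Itga5, Itga9 and Sdc4 were lost with 1 Oct4+ library left out.

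Retinoid genes passed the threshold on both sides. Of 13 retinoid genes, 12 were tested. Of these, 4 (33.3%) were higher and 5 (41.7%) were lower, beside 13.1% and 14.6% of all genes tested. Cyp26a1, which degrades retinoic acid, was at 290, 132 and 278 CPM in DP and 7.05, 12.1 and 10.8 CPM in Oct4+, and the retinol receptor gene Stra6 and the retinol dehydrogenase gene Rdh10 rose by 4.47 and 2.87. Rarg, a retinoic acid receptor gene, was at 32.8, 37.1 and 21.7 CPM in DP and 470, 299 and 228 CPM in Oct4+ (-3.44, SE 0.34), and the binding protein genes Crabp1 and Crabp2 fell by 4.37 and 3.83. Of 14 genes of threonine, serine and 1-carbon metabolism, 3 (21.4%) were lower, beside 14.6% of all genes tested, and none was higher. Tdh, threonine dehydrogenase, on which mouse embryonic stem cells depend, was at 75.0, 150 and 105 CPM in DP and 590, 576 and 195 CPM in Oct4+ (-2.05, SE 0.41), and Psat1 fell by 1.72. Of 18 cholesterol synthesis genes, 1 (5.56%) passed the threshold, Insig1, which rose by 2.03. Among all genes tested, 13.1% were higher. The median of the cholesterol list was 0.82.

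Genes of S phase and mitosis had close levels more often than the other lists, without a test of that difference, but their summed level was lower in DP. None of 18 genes of S phase and mitosis passed the threshold in either direction, beside 27.7% of all genes tested. An adjusted p below 0.05 was found for 9 of the 18. Close levels were found for 9, beside 32.5% of all genes tested. The median log2 fold change was -0.53, and the summed level was 2656 to 3847 CPM in DP and 4480 to 5434 CPM in Oct4+. Ccna2, cyclin A2, was at 182, 245 and 213 CPM in DP and 230, 216 and 190 CPM in Oct4+ (0.01, interval -0.35 to 0.37), and Top2a had an interval of -0.76 to 0.30. The replication licensing genes Mcm5 and Mcm2 had log2 fold changes of -1.35 and -1.25, within the fold limit, and Pcna, the sliding clamp of DNA polymerase, of -1.13. The D cyclins differed by member: Ccnd1 was at 5.86, 4.01 and 3.40 CPM in DP and 55.3, 91.8 and 6.32 CPM in Oct4+, Ccnd2 at 271, 90.9 and 176 CPM and 12.2, 23.9 and 1.77 CPM, and Ccnd3 had close levels (interval -0.55 to 0.41). Cdk6 fell by 3.00 (SE 0.34). In the p53 list, 3 of 14 (21.4%) were lower, beside 14.6% of all genes tested, and none was higher. Trp53 was at 92.1, 124 and 130 CPM in DP and 627, 532 and 504 CPM in Oct4+ (-2.26, SE 0.17). Pmaip1, a BH3-only gene of apoptosis, had a log2 fold change of -1.62, and its call was lost without DP or Oct4+ replicate 2.

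Marker lists of other cell types were checked for both gates. The 2-cell-like markers, expressed in a rare state of embryonic stem cell cultures that resembles the 2-cell embryo, were high in Oct4+: 9 of 10 were tested and all 9 were lower in DP, at a median of -6.13. Among all genes tested, 14.6% were lower. Members with few reads in DP entered the test through the Oct4+ libraries, so the count of 9 is a description. Their summed level was 6.36 to 19.0 CPM in DP, 328 to 1230 CPM in Oct4+ and 0.835 to 3.79 CPM in Pdgfra+. Zscan4c was at 0.125, 2.48 and 0.654 CPM in DP and 42.6, 99.4 and 190 CPM in Oct4+ (-6.62, SE 0.76), Zscan4d at 2.37, 6.61 and 1.96 CPM and 95.3, 226 and 389 CPM, and Zfp352 fell by 6.43. The Oct4+ libraries differed widely among themselves, and each lay apart from every DP library. The tenth marker, Dux, had no row.

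The Zscan4 genes form a cluster of near-identical copies on chromosome 7, so that reads could be split or merged between them by the authors' counting and the values of single copies are uncertain. Stretches of 216 bases upstream of 3 of these genes are shown to let the likeness of the copies be seen. They lie outside the counted transcripts and say nothing of how reads were assigned. They are aligned without gaps, with the 7 positions at which any copy differs in capitals (chr7:11005506-11005721, plus strand; chr7:11166183-11166398, minus strand; chr7:11397699-11397914, plus strand; GRCm38.p6).
Zscan4c: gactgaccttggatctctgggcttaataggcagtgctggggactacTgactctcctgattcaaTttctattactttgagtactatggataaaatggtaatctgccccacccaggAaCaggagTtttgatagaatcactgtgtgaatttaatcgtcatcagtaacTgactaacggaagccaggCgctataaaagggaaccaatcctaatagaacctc
Zscan4d: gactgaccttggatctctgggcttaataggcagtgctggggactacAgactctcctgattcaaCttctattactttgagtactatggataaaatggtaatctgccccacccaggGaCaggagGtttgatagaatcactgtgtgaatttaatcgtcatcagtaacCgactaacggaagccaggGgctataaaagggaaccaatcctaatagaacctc
Zscan4f: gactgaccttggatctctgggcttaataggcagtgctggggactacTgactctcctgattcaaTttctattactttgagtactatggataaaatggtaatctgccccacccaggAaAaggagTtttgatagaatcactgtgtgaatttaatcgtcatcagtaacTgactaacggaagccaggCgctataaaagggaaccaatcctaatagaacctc
Zscan4c and Zscan4f were 99.5% identical over this stretch and Zscan4c and Zscan4d 97.2%.

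Feeder fibroblast markers were low in both gates. Their summed level was 59.8 to 86.5 CPM in DP and 99.3 to 240.2 CPM in Oct4+. In Pdgfra+ it was 119 to 396 CPM, highest in replicate 3. Of the 12 markers, 7 were tested. Of these, 2 (28.6%) were lower in DP and none was higher, beside 14.6% and 13.1% of all genes tested. Col1a1 was at 0.249, 0.472 and 0.523 CPM in DP and 68.3, 5.23 and 2.66 CPM in Oct4+, and Postn, with 10.2 CPM, and Dcn, with 4.34 CPM, were highest in Oct4+ replicate 1, with 0.131 CPM or less in each of the other 5 libraries. Thy1, a surface marker of fibroblasts, fell by 3.27. Oct4+ replicate 1 thus held more fibroblast transcripts than the other 5 DP and Oct4+ libraries. The part of fibroblast transcripts in the other differences was not tested. Every call of the naive, endoderm, basement membrane and endocytic lists remained without that library. The summed level in Oct4+ replicates 2 and 3 was 99.3 and 103 CPM, also above every DP library.

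The summed level of 10 trophectoderm markers was 165 to 249.5 CPM in DP and 70.6 to 87.1 CPM in Oct4+. Of the 8 tested, 3 (37.5%) were higher in DP and 1 (12.5%) was lower, beside 13.1% and 14.6% of all genes tested. The 3 were Fgfr2, a receptor also used by PrE, at 62.8, 107 and 116 CPM in DP and 7.67, 20.1 and 9.20 CPM in Oct4+, Tead4, which rose by 2.17, and Cdx2, at 6.36, 4.25 and 5.10 CPM in DP. Tfap2c fell by 3.47, Eomes had a log2 fold change of 0.49, and the defining markers Elf5 and Hand1 were at or below 2.07 CPM in all 6 libraries.

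The mesendoderm list, 8 genes, had 1 with enough counts, Lhx1, which rose by 2.66. The untested T (brachyury), Fgf8 and Wnt3 were at 12.2, 7.89 and 5.23 CPM in Oct4+ replicate 2 and at or below 2.09 CPM in the other 5 libraries, so that the library with the highest Otx2, Pou3f1 and Fgf5 also had the highest levels of these primitive streak genes. Of 8 parietal endoderm markers, 5 (62.5%) were higher in DP and 2 (25.0%) were lower, beside 13.1% and 14.6% of all genes tested. The 5 include Sparc and Lamb1, which are also members of the basement membrane list. Pth1r, the parathyroid hormone receptor gene of parietal endoderm, was at 817, 289 and 591 CPM in DP and 3.41, 16.6 and 1.77 CPM in Oct4+, Thbd and Plat rose by 5.92 and 4.65, and Vim, vimentin, which parietal cells also express, fell by 2.07. Snai2, the other gene called lower, lost its call with 1 library left out.

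**Figure D5:**
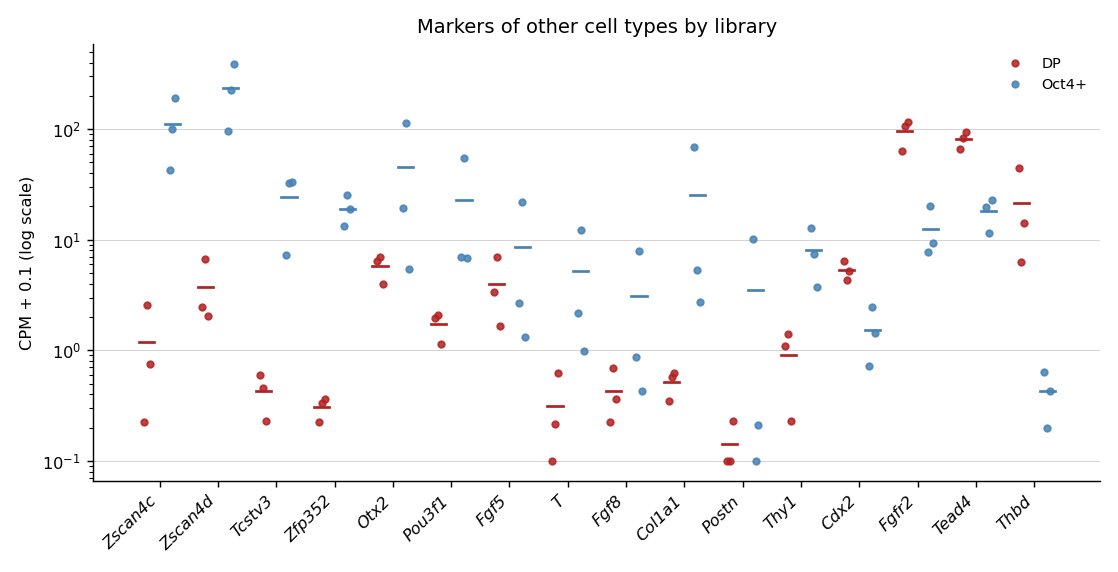
CPM + 0.1 on a log axis for markers of other cell types in DP (red) and Oct4+ (blue), with 1 point per library and a line at the mean of 3. Zscan4c, Zscan4d, Tcstv3 and Zfp352 are separated in all libraries, while Otx2, Pou3f1, Fgf5, T and Fgf8 have 1 high Oct4+ library and Col1a1 and Postn another.

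The genes with the largest fold changes were then taken by rule, among genes whose higher group averaged 50 CPM or more, whose lower group held 4 reads or more and whose libraries did not overlap. There were 820 such genes higher in DP and 314 lower. The 12 largest among the higher were Lama1, Col4a2, Glipr1, Col4a1, Cubn, Tns4, Hs3st1, Timd2, Sox7, Frmpd1, Bmper and Pdgfra, from 7.15 down to 6.31 on the log2 scale. Glipr1, a member of the CAP family of secreted proteins, was at 151, 70.3 and 90.1 CPM in DP and 0.388, 0.592 and 1.44 CPM in Oct4+. Hs3st1, which sulfates heparan sulfate, and Bmper, a secreted binder of BMPs, rose by 6.50 and 6.33. Timd2, a receptor for ferritin, was at 39.5, 69.4 and 83.0 CPM in DP against a mean of 21.4 CPM in Pdgfra+.

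The 12 largest among the lower genes were Halr1, Zscan4c, Cdx1, Pramel20, Zscan4-ps1, Zscan4a, Usp17lb, Zscan4-ps3, Usp17la, Zscan4d, Eif1ad15 and Eif1ad3, from -6.86 to -5.84. All but Halr1 and Cdx1 belong to multicopy families, with the same uncertainty between copies. Halr1, a long noncoding RNA next to the Hoxa cluster, was at 0.249, 0.708 and 0.523 CPM in DP and 69.9, 43.1 and 64.7 CPM in Oct4+. Cdx1, a caudal homeobox gene and WNT target, was at 0.748, 1.89 and 0.261 CPM in DP and 119, 5.62 and 154 CPM in Oct4+, where replicate 2 was low.

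No chromosome stood apart. The median log2 fold change over protein-coding genes with at least 10 CPM was between -0.10, on chromosome 6, and 0.21, on chromosome 19, over 20 chromosomes with 257 to 815 genes each, and it was 0.16 on the X chromosome.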

How the data were processed

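RNA of sorted nEnd cells was sequenced in 9 bulk libraries, 3 each of DP, Oct4+ and Pdgfra+, and every sample was grouped by its label. The authors deposited a table of raw read counts per gene, not normalized. Which aligner, counting program, gene annotation and strand setting made this table was not given in the sources used here, so antisense genes, overlapping genes and near-identical copies are uncertain. The 2 single-cell samples of the series were not used here. The DP and Oct4+ libraries held 8019631 to 11642571 reads, and counts of a few reads carry a wide counting error.

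Genes were filtered with filterByExpr, which left 14185 of 48952, scaled by TMM and fitted in edgeR 4.0.16 (R 4.3.3) with glmQLFit and glmQLFTest over all 9 libraries, with 6 residual degrees of freedom. The standard error (SE) is the log2 fold change divided by the square root of F, and adjusted p-values are Benjamini-Hochberg over all genes tested. The procedure was tested on simulated data. Alternatives were RLE and upper-quartile scaling, no or a stricter filter, DESeq2 1.42.0, limma-voom (limma 3.58.1), glmTreat, the 6 libraries alone, a replicate block and leaving out each library. Libraries of a group differed beyond sampling noise, with a chi-square per degree of freedom of 16.7 to 36.6, so their counts are not those of 1 library deposited again. This value alone does not tell separate cultures from repeat preparations, and the paper calls the libraries biological replicates. Named genes were the sort genes and markers, the members of fixed lists, and in each direction the 12 genes with the largest fold change under the limits stated beside them. Members and lists were chosen with earlier results of these data known. Promoters are from RefSeq (GRCm38.p6), matched by symbol for 10653 tested genes, and summaries used Python 3.11.15 with pandas 2.3.3 and scipy 1.17.1. Some members of the lists are not reported here by name, although the counts and medians of the lists include them.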

Additional observations from a re-analysis of the deposited data

How the results depend on the processing

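The number of genes past the threshold, 3933 in all, 1859 higher and 2074 lower in DP, was within 1.5 times of these values under RLE and upper-quartile scaling, DESeq2, limma-voom and the fit of the 6 libraries alone. Without a filter 3121 genes were lower, with 28233 genes tested. With at least 5 CPM in 3 libraries, 2546 genes passed and 1204 were lower, with 11124 genes tested. When the fold limit itself was tested with glmTreat, 2376 genes passed, 1090 higher and 1286 lower. Close levels at a limit of 0.5 were found for 943 genes. Leaving out 1 library at a time gave 3920 to 4369 genes, 1812 to 1986 higher and 2079 to 2435 lower, and 4038 to 4511 with close levels. Upper-quartile scaling moved the share of calls that were higher in DP from 47.3% to 39.7%. Same-numbered DP and Oct4+ libraries had correlations of 0.0222, -0.0728 and 0.152, which did not all exceed 0.1, and a shared origin of same-numbered libraries is not given in the labels. Single genes did share a pattern, picked after their values were seen: replicate 2 was the highest of each group for Otx2, Fgf5, Utf1, Dnmt3b and Mycn. The replicate block gave 3945 genes with 9 libraries and 3767 with 6, and Grhl2, Dusp4 and Slc25a31 lost their calls in both blocked fits, while Apom and Rhox5 gained one. Of 210 named genes past the threshold, 185 kept the call when any 1 library was left out and 147 under every alternative. Another 33 were lost under glmTreat alone, Ccnd1, Cdx1 and Col1a1 under limma-voom and Pou3f1 under DESeq2. The cause was not tested. Depth limits genes with few reads.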

Other observations

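Gene families grouped by symbol, a grouping chosen after seeing the data, were described beside the lists. Of 15 tested SOX genes, 3 were higher in DP and 6 were lower, beside 13.1% and 14.6% of all genes tested. Sox21 was at 23.6, 9.79 and 14.5 CPM in DP and 3.26, 4.24 and 3.10 CPM in Oct4+ (log2 fold change 2.17, SE 0.37), while Sox11 fell by 4.50 and Sox15 by 4.20. Of 9 WNT ligand genes, 4 (44.4%) were higher and 3 (33.3%) were lower, beside the same shares of all genes tested. Wnt11 was at 118, 38.4 and 106 CPM in DP and 1.40, 4.53 and 2.44 CPM in Oct4+ (4.99, SE 0.62), and Wnt7b, Wnt4 and Wnt6 also rose, whereas Wnt8a, Wnt5b and Wnt3a fell by 5.79, 4.01 and 3.73.

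Families of membrane traffic were higher where they passed. Of 29 sorting nexin genes, 10 (34.5%) were higher and none was lower, beside 13.1% and 14.6% of all genes tested. When any 1 library was left out, 7 of these 10 calls remained. Snx2, a retromer-associated sorting nexin, was at 523, 556 and 594 CPM in DP and 169, 160 and 173 CPM in Oct4+. Of 9 TMED cargo receptor genes, 3 (33.3%) were higher and none was lower. These were Tmed2, Tmed3 and Tmed9, which rose by 2.05, 2.96 and 1.73.

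Of 236 tested long intergenic noncoding RNA genes, 93 were lower and 41 higher in DP, beside 1681 lower and 1702 higher among 12694 protein-coding genes. Genes with few reads in one group entered the test through the other, so these counts are a description.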
